A study of Mus musculus with 30 samples.

Results

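Atf4, Atf5 and 8 further mRNAs of the cellular stress response were followed across total RNA and 4 sucrose-gradient pools in mouse embryoid bodies and the embryonic stem cells they were made from. The members were chosen by name: Atf4, Atf5, Ddit3, Ppp1r15a, Trib3, Chac1, Sesn2, Asns, Psat1 and Phgdh. A probe set counted for a gene where the array's annotation gave that symbol and no other. This rule found all 10 genes, with 20 probe sets, among 18193 genes and 34945 probe sets with a single symbol. Another 2 probe sets listing Phgdh with further symbols were left out. Relative to all genes, Psat1 and Phgdh were lower in total RNA of embryoid bodies (log2 differences of -1.42 and -0.91), Ppp1r15a was higher (0.83) and Atf5 lower (-0.92). The calls of Psat1 and Phgdh held in 6 of 6 fits that left out 1 culture, that of Atf5 in 2 and that of Ppp1r15a in 1. Relative to all genes, Ddit3 signal also lay further toward pools 1 and 2 in embryoid bodies than in stem cells. That call was lost without ESC culture 1 or 2 or after median centring, and on the deposited scale no such difference was called.

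The embryoid bodies (EB) were aggregates of R-1 mouse stem cells grown for 5 days without LIF, the cytokine that keeps such cells undifferentiated. The embryonic stem cells (ESC) were of the same R-1 line, kept with LIF. All cells, of both states and of every array, received cycloheximide, a drug that arrests ribosomes on mRNAs, at 150 ug/ml for 15 min before harvest. From each of 3 biological replicate cultures per state, RNA of 4 gradient pools and total RNA were hybridised from 2.5 ug each, which gave 30 Affymetrix arrays in 10 groups of 3. Which end of the gradient gave pool 1 is not in the labels, so the pools go by number and none is called heavy or light.

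The integrated stress response acts through phosphorylation of the initiation factor eIF2, which lowers general protein synthesis. Some mRNAs with upstream open reading frames, Atf4 and Atf5 among them, are instead translated more under that condition, and the ATF4 protein then activates genes for amino acid synthesis and transport, for transfer RNA charging and for control of cell survival. Ddit3, Ppp1r15a, Trib3, Chac1, Sesn2, Asns, Psat1 and Phgdh are among its known targets.

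Deposited values were log2 signals, given below as linear signal unless stated otherwise. Every array had been scaled to Bacillus spike-in RNAs, so that brightness differed between arrays: the mean signal ran from 72.4 to 578 over the 30 arrays, and was 345 ± 38.5 in total RNA of EB and 154 ± 2.86 in total RNA of ESC (SD, n = 3 each). The median gene was therefore 0.96 higher in EB on the log2 scale in total RNA. Each comparison is given on this deposited scale and after quantile normalization over the arrays compared, called relative to all genes, which removed that shift (median 0.011). Other values moved with the state. The 3′ minus 5′ difference of the Actb probe sets, a measure of RNA integrity and labelling, was 2.26 ± 0.224 in total RNA of EB and 3.10 ± 0.287 in total RNA of ESC on the log2 scale, and the hybridisation controls averaged 12.2 and 11.4 there. Over the 24 pool arrays these values ran more widely, from 0.46 to 5.31 and from 9.60 to 13.9. The Actb difference was 1.82 to 2.98 in EB and 3.87 to 4.22 in ESC in pool 1. In pool 4 it was 0.46 to 1.01 in EB and 1.34 to 3.54 in ESC. Of 10 stem cell markers, all were measured above the array floor in every pool, and their summed signal in total RNA was 52863 to 67768 in EB and 28842 to 31666 in ESC. Relative to all genes 1 of the 10 was higher and 2 were lower in EB: Nanog was higher (0.54 ± 0.11 SE, adjusted p = 0.0252, lost without any 1 of the 6 cultures), and Klf4 (-1.69 ± 0.11 SE, adjusted p = 0.000776) and Fgf4 (-0.66 ± 0.13 SE, adjusted p = 0.0217, called in 1 of 6 fits that left out 1 culture) were lower. Summed deposited signal of 10 feeder fibroblast markers in total RNA was 318 to 369 in EB and 185 to 241 in ESC. Col1a1, Postn and Col3a1 were at the floor on 18, 19 and 16 of 24 pool arrays, Lum and S100a4 on 14 each and Col1a2 and Dcn on 11 each. Fbln2, Pdgfrb and Thy1 were there on 7, 3 and 0. Of the 10, 4 were tested in total RNA relative to all genes, and 0 were higher and 0 lower, against 6.53% and 5.82% of all genes. Their median was -0.16, beside 0.011. The part of brightness, RNA integrity or other cell types in the results below was not tested.

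Each gene was represented by its brightest probe set, and tests used limma on log2(signal + 32) with Benjamini-Hochberg adjustment over 13250 genes and a threshold of 0.05. A gene past that threshold is called higher or lower. Bulk arrays cannot tell fewer cells with an mRNA apart from less of it per cell.

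Atf4 encodes the transcription factor at the centre of the response, and its gene lies at chr15:80255184-80257545 (GRCm38.p6, RefSeq). Its total RNA signal was 2684, 1992 and 2798 in the 3 EB cultures, against 976, 1105 and 1089.9 in the 3 ESC cultures. All EB cultures were above all ESC cultures, and the deposited difference was called (1.20 ± 0.17 SE, adjusted p = 0.000131). That difference was close to the shift of the median gene, and relative to all genes Atf4 differed by 0.024 ± 0.13 SE, adjusted p = 0.926. A second probe set with that symbol gave 0.24 relative to all genes. The remaining one lay at the floor on 17 of 24 pool arrays and gave no usable value.

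Atf5 encodes a related factor whose mRNA is also controlled by upstream open reading frames (chr7:44812256-44816658). Its total RNA signal was 155, 74.5 and 82.7 in the 3 EB cultures, against 68.1, 111 and 97.0 in the 3 ESC cultures. The states overlapped, and the deposited difference was 0.10 ± 0.23 SE, adjusted p = 0.69. With the median gene brighter in EB, Atf5 was lower relative to all genes (-0.92 ± 0.19 SE, adjusted p = 0.0277), with 6.95, 6.45 and 6.42 in the EB cultures, against 7.24, 7.70 and 7.64 in the ESC cultures on the log2 scale. With the replicate number as a block it was not called (-0.92, adjusted p = 0.0855). The call was lost without EB culture 2 (-0.81, adjusted p = 0.095), EB culture 3 (-0.80, adjusted p = 0.0871), ESC culture 2 (-0.86, adjusted p = 0.0731) or ESC culture 3 (-0.89, adjusted p = 0.074).

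Ddit3, which encodes CHOP, a factor linked to cell death under prolonged stress (chr10:127290793-127296291), had a total RNA signal of 508, 393 and 523 in the 3 EB cultures, against 151, 94.4 and 136 in the 3 ESC cultures. The groups did not overlap and the gene rose on the deposited scale (1.68 ± 0.19 SE, adjusted p = 3.67e-05), with 93.8% of the genes tested below it. After median centring it was also called relative to all genes (0.71, adjusted p = 0.0243), whereas after quantile normalization the difference was 0.44 ± 0.19 SE and did not pass the test (adjusted p = 0.17). Ppp1r15a encodes GADD34, the phosphatase subunit that reverses eIF2 phosphorylation in a feedback loop (chr7:45522917-45526268). Its signal was 826, 588 and 910.2 in the 3 EB cultures, against 159, 127 and 179.8 in the 3 ESC cultures, the largest deposited difference among the members (2.10 ± 0.20 SE, adjusted p = 2.07e-05). Ppp1r15a was also the only member higher in EB relative to all genes (0.83 ± 0.18 SE, adjusted p = 0.0309), with 9.02, 8.75 and 9.22 in the EB cultures, against 8.23, 7.87 and 8.40 in the ESC cultures. The call held without ESC culture 3 and was lost without EB culture 1 (0.82, adjusted p = 0.0934), EB culture 2 (0.95, adjusted p = 0.0527), EB culture 3 (0.72, adjusted p = 0.0889), ESC culture 1 (0.86, adjusted p = 0.0708) or ESC culture 2 (0.68, adjusted p = 0.0677).

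Among the effectors, Trib3 encodes a pseudokinase that dampens the response (chr2:152337425-152344060), with a signal of 189, 197 and 174 in the 3 EB cultures, against 149, 77.2 and 131 in the 3 ESC cultures. Chac1 encodes an enzyme that degrades glutathione (chr2:119351242-119354326), and its signal was 324, 176 and 241 in the 3 EB cultures, against 134, 111 and 136 in the 3 ESC cultures. Sesn2 encodes a leucine-binding regulator of mTORC1 (chr4:132492804-132510456), with 609, 465 and 313 in the 3 EB cultures, against 189, 236 and 164 in the 3 ESC cultures. For all 3 genes every EB culture was brighter than every ESC culture, and the deposited differences were called: 0.56 ± 0.20 for Trib3 (adjusted p = 0.0244), 0.78 ± 0.20 for Chac1 (adjusted p = 0.00536) and 1.08 ± 0.23 for Sesn2 (adjusted p = 0.00162). On this scale the median gene was 0.96 higher in EB and 78.9% of all genes were called higher. The call of Trib3 was lost without EB culture 1 (0.56, adjusted p = 0.0523), EB culture 2 (0.53, adjusted p = 0.0718) or ESC culture 2 (0.35, adjusted p = 0.0936). Relative to all genes none of the 3 was called, with -0.58 for Trib3, -0.41 for Chac1 and -0.19 for Sesn2 (adjusted p = 0.154, 0.159 and 0.619). Trib3 and Sesn2 also had a second probe set each, at the floor on 0 of 24 pool arrays, whose values are not given here.

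The amino acid enzymes divided. Asns, asparagine synthetase (chr6:7675165-7693209), had a signal of 3421, 2647 and 2978 in the 3 EB cultures, against 1226, 1305 and 1261 in the 3 ESC cultures, rose on the deposited scale (1.23 ± 0.15 SE, adjusted p = 6.10e-05) and was not called relative to all genes (0.058 ± 0.10 SE, adjusted p = 0.755). Phgdh encodes the first enzyme of serine synthesis from glucose (chr3:98313171-98339969) and Psat1 the next one (chr19:15905123-15925059). Psat1 signal was 1489, 1333 and 1235 in the 3 EB cultures, against 1687, 1746 and 1379.6 in the 3 ESC cultures. Phgdh signal was 1607, 1287 and 1479 in the 3 EB cultures, against 1105, 1226 and 1226 in the 3 ESC cultures. Neither deposited difference passed the test (-0.24 ± 0.16 SE, adjusted p = 0.191 for Psat1; 0.29 ± 0.15 SE, adjusted p = 0.106 for Phgdh), while the typical gene rose, so that both were lower relative to all genes. Psat1 fell by 1.42 ± 0.13 SE (adjusted p = 0.0024), with 9.86, 9.92 and 9.66 in the EB cultures, against 11.29, 11.31 and 11.10 in the ESC cultures, and 0.272% of the genes tested lay lower. Phgdh fell by 0.91 ± 0.11 SE (adjusted p = 0.00484). Both calls held in each of the 6 fits that left out 1 culture, with values of -1.49 to -1.35 for Psat1 and -0.94 to -0.86 for Phgdh. The second Psat1 probe set gave -1.02 and the other 3 Phgdh probe sets -0.88, -0.63 and -0.61. All 4 Phgdh probe sets, the brightest ones of Asns and Trib3 used throughout, and the second bright one of Atf4 are of a kind (suffix _x_at) whose probes can also match other transcripts.

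In total, 7 of 10 members were called higher and 0 lower in EB on the deposited scale, where limma called 78.9% of all genes higher and 0.325% lower. The members' median difference was 0.93, beside 0.96 over all genes. With arrays scaled on the hybridisation controls instead of the spike-ins, 2 members were higher and 1 lower, as were 2037 and 101 of all genes: Ddit3 (0.95, adjusted p = 0.012) and Ppp1r15a (1.34, adjusted p = 0.000199) were higher and Psat1 lower (-1.06, adjusted p = 0.00485), while Trib3 turned without a call (-0.11, adjusted p = 0.834). Relative to all genes 1 member was higher and 3 were lower, against 6.53% and 5.82% of all genes, and the members' median was -0.30, beside 0.011.

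**Figure D1:**
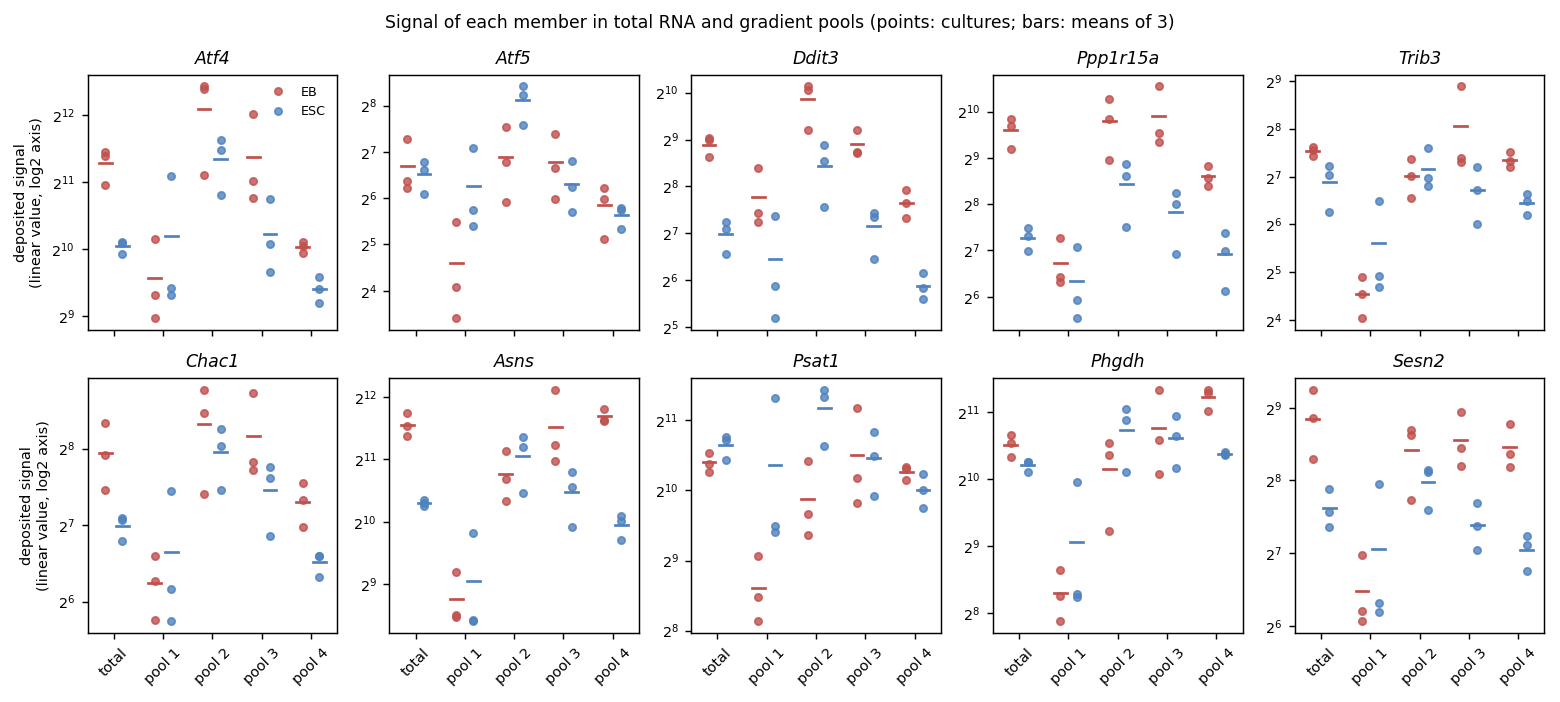
Deposited signal (linear value on a log2 axis) of the 10 genes across total RNA and the gradient pools. Each point is 1 culture, EB left of ESC, and bars are means of 3; in total RNA Ppp1r15a and Ddit3 of EB lie well above ESC while Psat1 and Atf5 overlap.

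**Figure D2:**
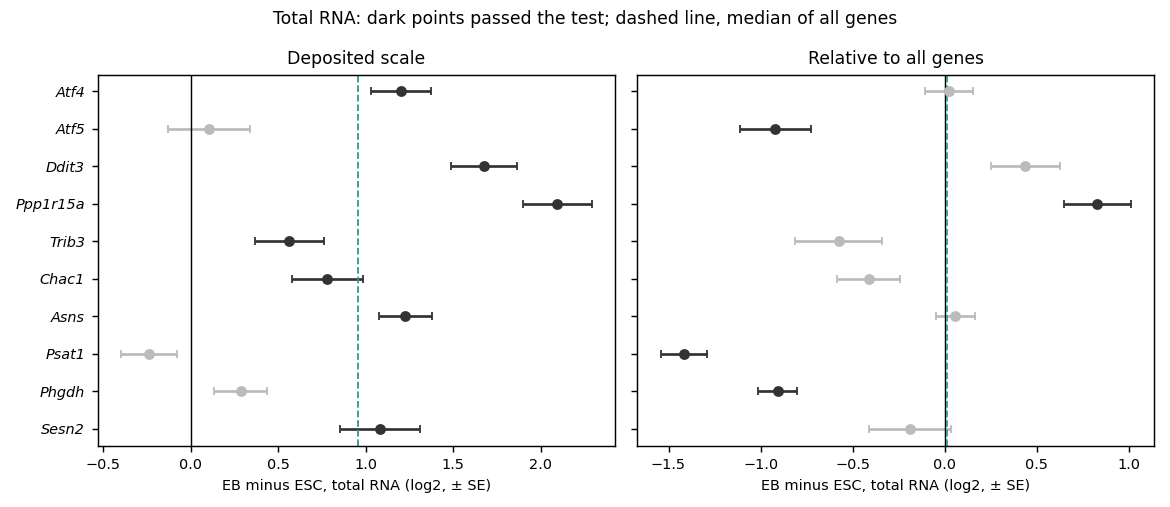
EB minus ESC difference in total RNA (log2, ± SE, 3 cultures per state) on the deposited scale (left) and relative to all genes (right). Dark points passed the test and the dashed line is the median of all genes, 0.96 on the left and 0.011 on the right.

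Upstream sequence of the members was searched for TGATGNAA, a core shared by many elements bound by ATF4 with C/EBP partners, on both strands of the 300 bases around each RefSeq start. The letters were found in 3 of 12 member windows (3 of 10 genes), and in 3.969% of 32851 windows of all genes. A match is a description and not a binding site. The upstream matches of Asns and Chac1, the members with a match before the start, are shown with the motif in capitals, for Chac1 on the strand opposite to the gene (GRCm38.p6, RefSeq, 5′ to 3′ along the gene).
Asns, minus strand, chr6:7693210-7693257: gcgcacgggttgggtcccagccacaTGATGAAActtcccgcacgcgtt
Chac1, plus strand, chr2:119351029-119351076: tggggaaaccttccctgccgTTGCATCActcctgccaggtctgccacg
The match began 23 bases before the start in Asns and 193 bases before it in Chac1.

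How each mRNA was spread over the gradient was read from the 4 pool arrays of a culture. Atf4 was brightest in pool 2 in both states, with 5330.3, 2210.3 and 5518 in EB, against 3169, 1783 and 2837 in ESC. Its pool 1 signal was 1136, 501 and 639 in EB, against 2179.8, 635 and 685 in ESC. In pool 3 it had 4153, 1734 and 2077 in EB, against 1722, 803 and 1075 in ESC, and in pool 4 1053, 1105 and 982 in EB, against 765, 680.3 and 588 in ESC. ESC culture 1 stood apart in pool 1: all 10 members were brightest there among the ESC pool 1 arrays, and the mean signal of that array was 226, beside 72.4 and 81.3 in ESC cultures 2 and 3. Pool 2 held 48.5% ± 10.3 of the summed Atf4 pool signal in EB and 47.0% ± 7.22 in ESC (SD, n = 3), and pool 4 held 13.2% ± 5.87 and 12.8% ± 4.05. Such shares compare array signals, and whether they follow amounts in the gradient cannot be told. Each array received the same mass of RNA, and the step at which the spike-in RNAs were added was not found in the labels.

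Ddit3 was also brightest in pool 2, with 1128, 592 and 1060.1 in EB, against 372, 187 and 471 in ESC. Its pool 1 signal was 338, 150.1 and 172 in EB, against 165, 36.5 and 58.5 in ESC. Pool 3 gave 588, 419 and 428 in EB, against 174, 88.0 and 163 in ESC, and pool 4 159.8, 199 and 242 in EB, against 71.5, 48.5 and 56.5 in ESC. Pool 2 thus held 50.1% ± 6.15 of the Ddit3 signal in EB and 54.1% ± 7.89 in ESC. Atf5 had its highest mean in pool 2 as well, with 185, 111 and 60.5 in EB, against 298, 191 and 343 in ESC. In pool 3 it had 168, 63.1 and 100.4 in EB, against 111, 75.1 and 52.3 in ESC, and in pool 4 34.8, 63.6 and 74.5 in EB, against 54.9, 53.4 and 40.2 in ESC. Pool 2 held 37.1% ± 11.4 of its signal in EB and 57.5% ± 11.0 in ESC.

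Asns had another profile. Its signal in pool 4 was 3591, 3126 and 3191 in EB, against 1089.9, 1038 and 832 in ESC, and in pool 1 584, 357 and 365 in EB, against 904, 338 and 345 in ESC. In pool 2 it was 2257, 1296 and 1652 in EB, against 2353, 1409 and 2628 in ESC, and in pool 3 4451, 2006 and 2402 in EB, against 1783, 962 and 1509.7 in ESC. Pool 4 held 40.3% ± 6.68 of the Asns signal in EB, the highest share of any pool there, against 20.4% ± 6.44 in ESC, where pool 2 was highest at 41.8% ± 6.63. Phgdh followed the same order, with 44.2% ± 7.64 in pool 4 in EB and 26.9% ± 6.49 in ESC, and 19.8% ± 4.23 and 32.8% ± 5.82 in pool 2. These shares are of deposited signal. Relative to all genes, pool 4 was highest in every culture of both states for Asns and Phgdh. Its share in ESC was then 32.4%, 31.7% and 30.8% for Asns and 37.3%, 37.6% and 43.4% for Phgdh. In EB it was 47.0%, 44.9% and 42.9% for Asns and 49.1%, 47.4% and 44.0% for Phgdh. In EB pool 1 held between 4.11% (Trib3) and 11.8% (Ddit3) of the deposited signal of each member, and in ESC between 9.94% (Phgdh) and 19.8% (Psat1).

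The pool ratio, computed in each culture by subtracting the mean log2 value of pools 1 and 2 from the mean of pools 3 and 4, put these profiles on 1 scale. On the deposited scale it was higher in EB for 9 of 10 members, by 0.57 (Chac1) to 1.57 (Asns), and 0 were lower. Limma called 64.5% of all genes higher and 0.0755% lower in that comparison, with a median of 0.73 over all genes and 1.06 over the members. Ddit3 was the exception, at 0.19 ± 0.24 SE, adjusted p = 0.49. In this fit limma gave every gene the same SE, so the p-values do not reflect a gene's own spread. When arrays were scaled on the hybridisation controls instead of the spike-ins, limma called 0 of 10 members and 0 of 13250 genes in this comparison, with 2680 genes and 2 members at an unadjusted p under 0.05.

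Relative to all genes, the ratio of Ddit3 was -1.73, -1.13 and -1.36 in the EB cultures, against -0.60, -0.36 and -0.55 in the ESC cultures. Every EB culture lay below every ESC culture, and the difference was called (-0.91 ± 0.18 SE, adjusted p = 0.0153), with 1.30% of genes lower. It was the only member called, with 0 of 10 higher and 1 lower, against 3.61% and 4.65% of all genes. The call was lost without ESC culture 1 (-0.94, adjusted p = 0.0512), without ESC culture 2 (-0.84, adjusted p = 0.091), when only 17 of 13250 genes were called, and after median centring in place of quantile normalization (-0.54, adjusted p = 0.0655). The second Ddit3 probe set, at the floor on 10 of 24 pool arrays, gave -0.20.

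Atf4 had ratios of -1.09, -0.63 and -1.28 in the EB cultures, against -0.52, -0.49 and -0.49 in the ESC cultures. The groups did not overlap, but the difference of -0.50 ± 0.18 SE did not pass the test (adjusted p = 0.116). Atf5 had ratios of -0.55, -0.062 and 0.72 in the EB cultures, against -0.72, -0.49 and -1.05 in the ESC cultures, a difference of 0.79 ± 0.28 SE, adjusted p = 0.102. The EB cultures of Atf5 were spread widely and overlapped the ESC cultures. After median centring the difference was 0.010, adjusted p = 0.977 for Atf4 and 0.49, adjusted p = 0.128 for Atf5. Asns had 1.04, 0.89 and 0.85 in the EB cultures, against 0.55, 0.55 and 0.48 in the ESC cultures (difference 0.40 ± 0.15 SE, adjusted p = 0.122), and its second probe set gave a difference of -0.057. Trib3 had 0.77, 0.51 and 0.82 in the EB cultures, against 0.17, 0.28 and 0.49 in the ESC cultures (difference 0.38 ± 0.16 SE, adjusted p = 0.172). Chac1, with -0.28, -0.34 and -0.82 in the EB cultures, against -0.14, -0.19 and 0.070 in the ESC cultures, differed by -0.40 ± 0.18 SE, adjusted p = 0.203. Ppp1r15a, Psat1, Phgdh and Sesn2 differed by -0.19, 0.14, -0.22 and 0.058, none of them called and all with overlapping groups. After median centring 2 members were called, both higher: Asns (0.84, adjusted p = 0.00321) and Psat1 (0.76, adjusted p = 0.0111).

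**Figure D3:**
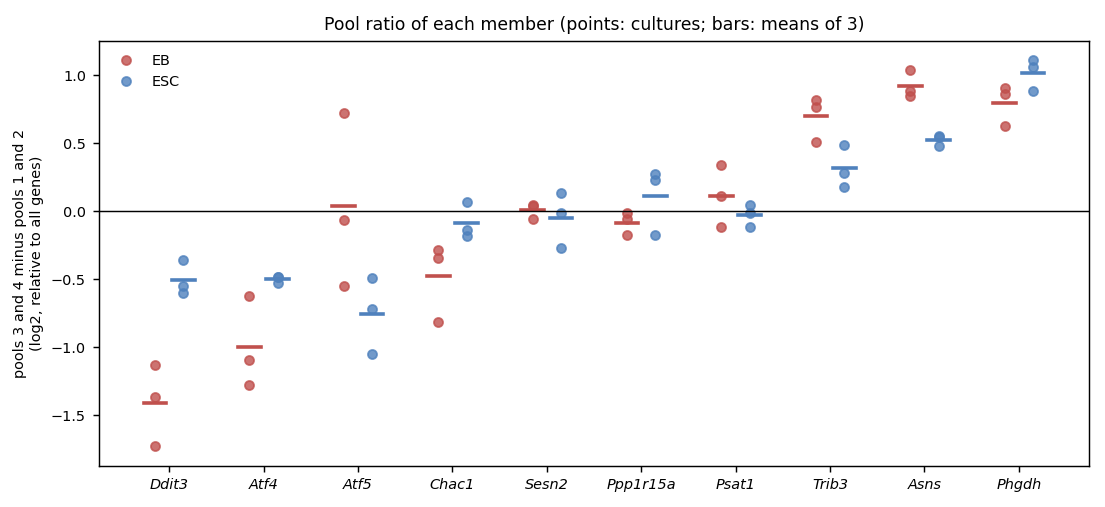
Pool ratio (pools 3 and 4 minus pools 1 and 2, log2, relative to all genes) of the 10 genes, ordered by their mean. Points are cultures, EB left of ESC, and bars are means of 3; Ddit3 and Atf4 lie below 0 in every culture, Asns, Trib3 and Phgdh above 0 in every culture.

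Within a state, the ratio was tested against 0, the level of a gene spread over the pools as the ranks of all genes are. In EB, Asns (0.92 ± 0.11 SE, adjusted p = 3.35e-05), Phgdh (0.80 ± 0.11 SE, adjusted p = 0.000156) and Trib3 (0.70 ± 0.12 SE, adjusted p = 0.000519) lay toward pools 3 and 4. Ddit3 (-1.41 ± 0.13 SE, adjusted p = 6.82e-06), Atf4 (-1.0 ± 0.13 SE, adjusted p = 8.83e-05) and Chac1 (-0.48 ± 0.13 SE, adjusted p = 0.0104) lay toward pools 1 and 2. These were 3 and 3 of 10 members, where 24.8% of all genes were called higher and 15.8% lower. All of these calls except that of Chac1, lost without EB culture 3 (-0.31, adjusted p = 0.0784), held when any 1 culture was left out. Chac1 was also lost after median centring (-0.21, adjusted p = 0.195). That setting gave 5 members higher and 2 lower in EB, as were 4382 and 4233 of all genes. In ESC, Phgdh (1.02 ± 0.11 SE, adjusted p = 6.57e-05) and Asns (0.53 ± 0.11 SE, adjusted p = 0.00275) lay toward pools 3 and 4. Atf5 (-0.75 ± 0.20 SE, adjusted p = 0.0119), Ddit3 (-0.50 ± 0.13 SE, adjusted p = 0.0108) and Atf4 (-0.50 ± 0.13 SE, adjusted p = 0.0119) lay toward pools 1 and 2, so that 2 members were higher and 3 lower, where 18.1% and 14.3% of all genes were. After median centring Asns was not called in ESC (0.38, adjusted p = 0.053). With pools 3 and 4 set against pool 1 alone, relative to all genes, Ppp1r15a was higher in EB (0.51, adjusted p = 0.0144), Chac1 was not called there (-0.33, adjusted p = 0.126), and in ESC neither Atf5 (-0.50, adjusted p = 0.103) nor Ddit3 (-0.18, adjusted p = 0.468) was.

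All 3 lower calls in ESC were lost without ESC culture 1 (-0.49, adjusted p = 0.0621 for Atf4; -0.76, adjusted p = 0.0555 for Atf5; -0.45, adjusted p = 0.0768 for Ddit3) and without ESC culture 3 (-0.50, adjusted p = 0.0572 for Atf4; -0.61, adjusted p = 0.107 for Atf5; -0.49, adjusted p = 0.0619 for Ddit3), and that of Atf4 also without ESC culture 2 (-0.51, adjusted p = 0.0655). The second bright Atf4 probe set gave -0.50 in EB and 0.0089 in ESC, so the 2 probe sets disagreed in ESC. The second Asns probe set gave 1.00 in EB and 1.06 in ESC. The 4 Phgdh probe sets were all above 0, at 0.43 to 1.33 in EB and 0.058 to 1.35 in ESC.

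On the deposited scale, where the pools differ in brightness, 6 members were higher and 1 lower (Ddit3, -0.47 ± 0.17 SE, adjusted p = 0.00943) within EB, against 60.3% and 4% of all genes. Within either state limma again gave every gene the same SE on this scale, so the p-values do not reflect a gene's own spread. The Ddit3 call was lost without EB culture 1 (-0.24, adjusted p = 0.324). Within ESC 1 was higher (Phgdh, 0.69 ± 0.17 SE, adjusted p = 0.000389, lost without ESC culture 2 at 0.53, adjusted p = 0.0518) and 3 were lower, against 7.01% and 18.4%. Those 3 were Atf5 (-0.90), Atf4 (-0.82) and Ddit3 (-0.66, lost without ESC culture 1 at -0.51, adjusted p = 0.0933). Scaling on the hybridisation controls gave 7 members higher and 0 lower in either state, as were 8857 and 105 of all genes in EB and 6677 and 21 in ESC. Ddit3 then had -0.088, adjusted p = 0.781 in EB, and within ESC Atf4 (0.27, adjusted p = 0.28) and Ddit3 (0.26, adjusted p = 0.379) turned without a call and Atf5 was not called (-0.029, adjusted p = 0.914). Against pool 1 alone, Ddit3 turned in EB (0.51, adjusted p = 0.0614) and in ESC (0.21, adjusted p = 0.645), and neither Atf4 (-0.16, adjusted p = 0.73) nor Atf5 (-0.12, adjusted p = 0.805) was called in ESC.

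Each pool was also compared between the states, relative to all genes of that pool. Psat1 was lower in EB in all 4 pools, with log2 differences of -1.39, -1.60, -1.33 and -1.03 in pools 1 to 4 (adjusted p = 0.00444, 0.00663, 0.000306 and 0.000923). Only the call in pool 2 was lost when a culture was left out, ESC culture 2 (-1.62, adjusted p = 0.0525). Atf5 was likewise lower in all 4, with -1.05, -1.59, -0.81 and -0.82 (adjusted p = 0.011, 0.0308, 0.0263 and 0.0123). The call of Atf5 in pool 4 held in 6 of 6 fits that left out 1 culture. In pool 1 it was lost without ESC culture 1 or 3 (adjusted p = 0.0512 and 0.0525), in pool 2 it held only without EB culture 2 or 3 (adjusted p up to 0.125 otherwise) and in pool 3 only without ESC culture 3 (up to 0.102). Phgdh was lower in pool 2 (-0.92 ± 0.23 SE, adjusted p = 0.0431), pool 3 (-1.24 ± 0.13 SE, adjusted p = 0.000575) and pool 4 (-0.47 ± 0.14 SE, adjusted p = 0.0438). In pool 3 that held in 6 of 6 fits, in pool 2 only without EB culture 3 (adjusted p up to 0.139 otherwise) and in pool 4 only without ESC culture 1 (up to 0.145).

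Ddit3 and Ppp1r15a ran the other way. Ddit3 was higher in EB in pool 1 (1.14 ± 0.12 SE, adjusted p = 0.0057), in 6 of 6 fits, and in pool 2 (1.03 ± 0.24 SE, adjusted p = 0.0356), only without EB culture 3 among the 6 (adjusted p up to 0.153 otherwise). In pools 3 and 4 it differed by 0.27 and 0.17 (adjusted p = 0.352 and 0.564). Ppp1r15a was higher in pool 2 (0.93 ± 0.23 SE, adjusted p = 0.0449), lost without any 1 of the 6 cultures (adjusted p up to 0.179). With arrays scaled to 1 median before the offset, neither Ddit3 (0.78, adjusted p = 0.0663) nor Ppp1r15a (0.68, adjusted p = 0.112) was called in pool 2. It was also higher in pool 3 (0.60 ± 0.14 SE, adjusted p = 0.0155), lost without EB culture 2 (0.58, adjusted p = 0.0622), EB culture 3 (0.61, adjusted p = 0.05) or ESC culture 2 (0.52, adjusted p = 0.0501).

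In pool 4, Asns was higher in EB (0.44 ± 0.086 SE, adjusted p = 0.0109), while Atf4 (-0.69 ± 0.11 SE, adjusted p = 0.00649) and Trib3 (-0.48 ± 0.10 SE, adjusted p = 0.0119) were lower, each in 6 of 6 fits. With arrays scaled to 1 median before the offset the Asns call was lost (0.17, adjusted p = 0.282), which left 0 members higher and 6 lower there. Chac1 was lower in pool 3 (-0.70 ± 0.14 SE, adjusted p = 0.00802), in 6 of 6 fits, and in pool 4 (-0.59 ± 0.12 SE, adjusted p = 0.0118), lost without EB culture 2 (-0.52, adjusted p = 0.0513). In pool 1 Atf4 (-0.39 ± 0.093 SE, adjusted p = 0.0488) and Sesn2 (-0.38 ± 0.071 SE, adjusted p = 0.0256) were lower, and each was lost without any 1 of the 6 cultures (adjusted p up to 0.137 and 0.0929). Trib3 was lower in pool 1 (-0.57 ± 0.12 SE, adjusted p = 0.0318) and lost without EB culture 1 or any ESC culture (up to 0.103). After median centring these 3 calls in pool 1 were lost too (adjusted p = 0.312 for Atf4, 0.368 for Sesn2 and 0.153 for Trib3), as they were with the replicate number as a block (adjusted p = 0.0842, 0.0779 and 0.0803). So were those of Ddit3 (0.92, adjusted p = 0.0677) and Ppp1r15a (0.81, adjusted p = 0.116) in pool 2, and of Phgdh (-0.14, adjusted p = 0.395) and Trib3 (-0.24, adjusted p = 0.114) in pool 4, where Atf4 kept its call at a smaller difference (-0.34, adjusted p = 0.0365).

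By pool, 1 member was higher and 5 lower in EB in pool 1, where 5.58% and 7.12% of all genes were called. In pool 2 these were 2 and 3 members, against 2.8% and 3.99%. In pool 3 they were 1 and 4, against 9.75% and 11.5%, and in pool 4 they were 1 and 6, against 13.7% and 15.4%. The members' median difference was -0.38, -0.35, -0.30 and -0.48 in pools 1 to 4, and that of all genes lay between -0.012 and 0.024. Leaving out 1 culture left 2 to 5 members called in pool 1, 0 to 4 in pool 2, 3 to 5 in pool 3 and 5 to 7 in pool 4, with the fewest in pool 2 without ESC culture 2. Where arrays were scaled to 1 median before the offset was added, more of the genes called were lower: 518 higher and 1852 lower in pool 1, against 739 and 944 after quantile normalization. The same scaling gave 204 and 776 in pool 2 (371 and 529 after quantile normalization), 1012 and 2374 in pool 3 (1292 and 1527), and 1405 and 3186 in pool 4 (1812 and 2035).

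**Figure D4:**
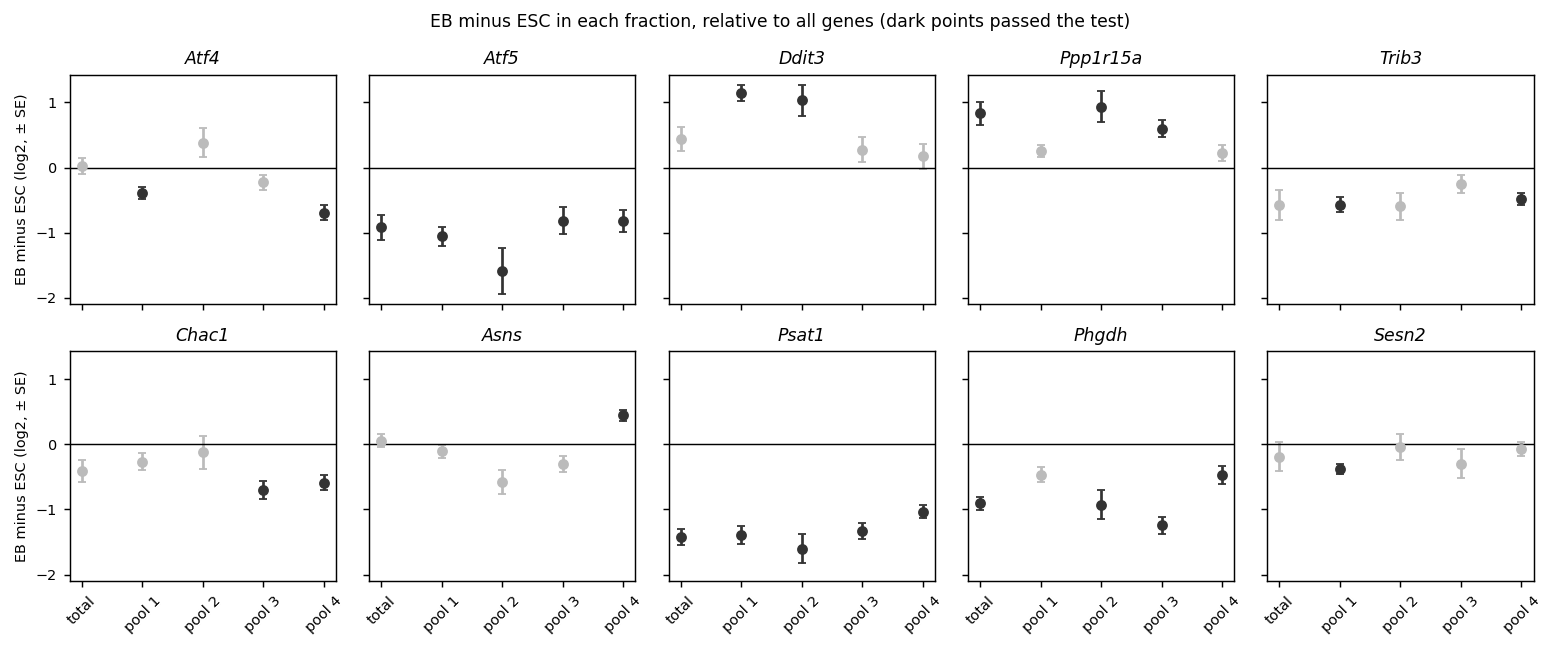
EB minus ESC difference (log2, ± SE, relative to all genes) of the 10 genes in total RNA and each pool, 3 cultures per state. Dark points passed the test. Psat1, Atf5, Phgdh, Trib3, Chac1 and Sesn2 lie below 0 in every fraction, and of these Psat1 and Atf5 passed in every fraction. Ddit3 is highest in pools 1 and 2.

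Other targets of the amino acid response, taken from a list chosen with earlier results of these data known, were read in the same fits. Of 40 listed, 37 were tested in total RNA relative to all genes, and 1 was higher and 15 were lower in EB, against 6.53% and 5.82% of all genes, with a median of -0.42 beside 0.011 over all genes. Nupr1, a stress-induced chromatin protein (-1.19 ± 0.13 SE, adjusted p = 0.00406), Psph, the last enzyme of serine synthesis (-1.08 ± 0.14 SE, adjusted p = 0.00612), and Aldh18a1, which starts proline synthesis from glutamate (-1.0 ± 0.11 SE, adjusted p = 0.00406), fell most, and each was called in 6 of 6 fits that left out 1 culture. In these fits 5 to 10 of the list were lower, the fewest without EB culture 2, and 0 higher. In pool 1 there were 1 higher and 13 lower (5.58% and 7.12% of all genes), with 5 to 9 lower when 1 culture was left out, the fewest without ESC culture 3. In pool 2 there were 0 higher and 9 lower (2.8% and 3.99%), with 2 to 12 lower, the fewest without ESC culture 1 or 2. In pool 3 there were 2 and 15 (9.75% and 11.5%) and in pool 4 there were 4 and 18 (13.7% and 15.4%), with 12 to 16 and 12 to 19 lower. On the deposited scale 31 of the 37 in total RNA were higher and 0 lower, against 78.9% and 0.325% of all genes, with a median of 0.72 beside 0.96. In the pool ratio relative to all genes 3 were higher and 2 lower, against 3.61% and 4.65% of all genes, and 0 to 4 were higher and 0 to 2 lower when 1 culture was left out. The lower ones, named here after their values were seen, were Eif4ebp1, an inhibitor of cap-dependent translation (-0.78, adjusted p = 0.0179), and Slc3a2, the heavy chain of amino acid exchangers (-0.66, adjusted p = 0.0322). The higher ones were Xpot, a transfer RNA exporter (0.91 ± 0.17 SE, adjusted p = 0.0118), Ddit4, an inhibitor of mTORC1 (0.90 ± 0.16 SE, adjusted p = 0.0112), and Slc38a2, a transporter of neutral amino acids (0.78 ± 0.17 SE, adjusted p = 0.02). Without ESC culture 2 none of the 3 was called (adjusted p = 0.0665, 0.0546 and 0.082). Xpot was also lost without ESC culture 1 (adjusted p = 0.0533), and Slc38a2 without ESC culture 1 (0.0796) or EB culture 1 (0.0533).

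**Figure D5:**
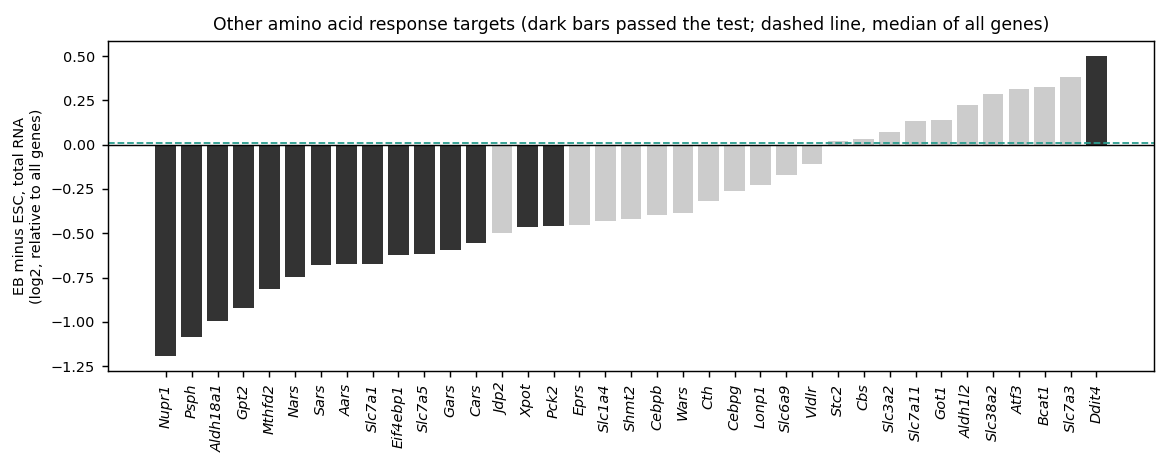
EB minus ESC difference in total RNA (log2, relative to all genes) of the tested genes on the list of other amino acid response targets, ordered by value. Dark bars passed the test, 15 of them below 0 and 1 above (Ddit4), and the dashed line is the median of all genes, 0.011.

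Serine and glycine metabolism, of which 19 of 24 listed genes were tested, had 1 higher and 4 lower in total RNA relative to all genes (median -0.17), against 6.53% and 5.82% of all genes, and 0 higher and 2 lower in each fit that left out 1 culture. Besides Psph, the mitochondrial folate enzyme Mthfd2 fell (-0.82 ± 0.11 SE, adjusted p = 0.00691), in 6 of 6 fits that left out 1 culture, and the cytosolic folate enzyme Aldh1l1 rose (0.51 ± 0.11 SE, adjusted p = 0.0292), in 0 of 6. The list was not separate from the one above, since Psph, Shmt2, Mthfd2, Aldh1l2, Cth, Cbs, Slc1a4 and Slc6a9 stand in both. The median pool ratio difference of the 19 genes was 0.096, beside 0.038 over all genes.

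Of 28 listed components of the eIF2 cycle and its kinases, 25 were tested, and 3 were higher and 0 lower in EB relative to all genes in total RNA: Eif5, the factor that triggers GTP hydrolysis on eIF2 (0.51 ± 0.10 SE, adjusted p = 0.0254), Impact, an inhibitor of the kinase GCN2 (0.50 ± 0.10 SE, adjusted p = 0.0237), and Eif2b3, a subunit of the eIF2 exchange factor (0.46 ± 0.12 SE, adjusted p = 0.0457). Of all genes 6.53% were higher and 5.82% lower, and the list's median was -0.032, beside 0.011. They were called in 1, 0 and 0 of the 6 fits that left out 1 culture. The pool ratios of that list gave 2 higher and 1 lower: Eif5 (0.85 ± 0.23 SE, adjusted p = 0.0446) and Ppp1cc, a catalytic subunit that partners GADD34 (0.60 ± 0.15 SE, adjusted p = 0.0374), against Denr, a reinitiation factor (-0.66 ± 0.17 SE, adjusted p = 0.0404), called in 1, 0 and 2 of 6 such fits. Here 3.61% of all genes were higher and 4.65% lower, and the list's median was 0.13, beside 0.038.

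Genes of endoplasmic reticulum stress, 28 of 30 tested, had 5 higher and 1 lower in total RNA relative to all genes, against 6.53% and 5.82% of all genes, with a median of 0.16 beside 0.011. When 1 culture was left out, 0 to 2 were higher and 1 lower. The largest were Ero1a, an oxidase of protein folding (0.91 ± 0.15 SE, adjusted p = 0.0133), Sec61b, a subunit of the translocon (-0.72 ± 0.11 SE, adjusted p = 0.00957), and Dnajb9, a co-chaperone (0.59 ± 0.13 SE, adjusted p = 0.0309), called in 4, 6 and 1 of 6 fits. Their pool ratios had 0 higher and 5 lower, against 3.61% and 4.65% of all genes, with a median of -0.23 beside 0.038 and 0 to 5 lower when 1 culture was left out. Among the lower ones were Derl2 of the degradation machinery (-0.70 ± 0.16 SE, adjusted p = 0.0225), the chaperone calreticulin, Calr (-0.70 ± 0.19 SE, adjusted p = 0.0468), and Manf, a secreted stress protein (-0.70 ± 0.17 SE, adjusted p = 0.0277), called in 2, 1 and 1 of 6 fits. After median centring these 3 differed by -0.34, -0.21 and -0.27 and none was called.

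Other mRNAs with upstream open reading frames, 22 of 25 tested, had 2 higher and 1 lower in total RNA relative to all genes, against 6.53% and 5.82% of all genes, with a median of -0.040 beside 0.011. Azin1, an inhibitor of antizyme (0.77 ± 0.12 SE, adjusted p = 0.0118), was higher in 6 of 6 fits, Slc7a1, an arginine and lysine transporter (-0.67 ± 0.12 SE, adjusted p = 0.0162), was lower in 4 of 6, and Ifrd1 (0.58 ± 0.12 SE, adjusted p = 0.0262) was higher in 1 of 6. In the pool ratio 2 were higher and 0 lower, Ibtk (0.95 ± 0.20 SE, adjusted p = 0.0189) and the cell cycle inhibitor Cdkn1b (0.73 ± 0.18 SE, adjusted p = 0.0347), in 3 and 1 of 6 fits, where 3.61% and 4.65% of all genes were called and the list's median was 0.081, beside 0.038. Slc7a1, Cebpb and Eprs of this list also stand among the amino acid response targets. A further list held relatives of the members by family, name or function, and 22 of its genes were tested. Sesn3 (1.13 ± 0.19 SE, adjusted p = 0.0133) and Ddit4 (0.50 ± 0.11 SE, adjusted p = 0.035) were higher in total RNA, in 5 and 0 of 6 fits. Creb1 (1.03 ± 0.19 SE, adjusted p = 0.0126) and Ddit4 had a higher pool ratio, each in 5 of 6, and 0 of the 22 were lower in either comparison. The medians of the 22 were 0.082 in total RNA and 0.30 in the pool ratio. Of all genes 6.53% were higher and 5.82% lower in total RNA, and 3.61% and 4.65% in the ratio. Ddit4, the mTORC1 inhibitor named above, shares only a symbol stem with Ddit3. It also stands among the amino acid response targets, as do Got1, Atf3, Cebpb, Cebpg and Jdp2 of this list. Sesn3 thus rose where Sesn2 was not called (-0.19 ± 0.22 SE, adjusted p = 0.619), a difference between the 2 genes that was not tested.

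Across the 10 group means of values quantile-normalized over all 30 arrays, the genes whose pattern was most like Atf4 were Srp9 (Pearson r = 0.972), Naa38, H2az2, Lsm1 and Tyw5. The members closest to it were Chac1 (r = 0.743) and Ddit3 (r = 0.627), and Asns ran opposite (r = -0.752). Atf5 was most like Polr3gl (r = 0.971), Ak7, Runx3, Gnat2 and Sgk2, with Psat1 (r = 0.775) and Chac1 (r = 0.726) the closest members. These are descriptions over 10 groups that share cultures, not tests, and Atf4 and Atf5 themselves had r = 0.430.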

How the data were processed

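Total RNA and 4 gradient pools of 3 EB and 3 ESC cultures were measured on 30 arrays. The authors deposited log2 signals for 45101 probe sets, and the submitters' processing notes name MAS5 and affy, with versions and settings not given in the sources used here. In the deposited log2 signals 24 spike-in probe sets had nearly 1 level on every array (mean 9.43 to 9.78), which shows how arrays were scaled. At what step these RNAs were added was not found in the labels. The lowest value of a pool array was 1 of 3 log2 levels, 3.80, 2.93 or 3.35, by replicate number. It held 18.2% to 59.0% of probe sets and none of the members' brightest ones. Arrays of a group correlated at 0.914 or more.

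Probe sets were named from the array's annotation table. Deposited values were made linear, 32 was added and log2 was taken. After removal of the dimmest 40% of probe sets, the brightest one stood for each of 13250 genes. Fits used limma 3.58.1 in R 4.3.3 (lmFit, eBayes, two-sided, 3 cultures per state), adjusted over all genes, and were tested on simulated data. With 3 against 3, an exact permutation test of single values cannot go below p = 0.1, so none was run. Replicate numbers were not taken to pair cultures, since no fit had every same-number correlation of deviations above 0.1 (in total RNA relative to all genes these were 0.011, 0.021 and 0.042). Some single correlations were larger among pools relative to all genes. They were 0.131, 0.086 and 0.158 in pool 2 and 0.304, 0.032 and -0.0032 in pool 4. In pool 3 they were 0.158, 0.059 and 0.063, each above the highest correlation between different numbers (0.052). The same held for the pool ratio relative to all genes (0.058, 0.095 and 0.020, beside 0.018). It also held for deposited total RNA (0.016, 0.029 and 0.044, beside 0.011), and not for the remaining fits. Whether cultures of a number shared a batch was not tested. Alternatives were another offset, no filter, every probe set on its own, a variance trend, median centring, scaling before the offset, scaling on 18 hybridisation controls, other pool ratios, a replicate block and leaving out each culture.

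The members, lists and tests were chosen with earlier results of these data known. All members were named, and from each list up to 3 called genes with the largest change in total RNA and in the pool ratio, relative to all genes. The number of arrays limits the precision.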

Additional observations from a re-analysis of the deposited data

Results flagged for a closer look

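The pool ratio differed between EB and ESC by a test of the difference itself for 9 members on the deposited scale. In log2 units, EB minus ESC, it was higher by 1.57 ± 0.24 SE for Asns, 1.49 for Psat1, 1.22 for Atf5, 1.15 for Trib3, 1.11 for Sesn2, 1.02 for Phgdh, 0.91 for Ppp1r15a, 0.74 for Atf4 and 0.57 for Chac1, with the same SE for every gene, and limma's adjusted p was at most 0.0283. On that scale 64.5% of all genes were higher. The call of Atf4 was lost without EB culture 2 (0.51, adjusted p = 0.101) or ESC culture 1 (0.57, adjusted p = 0.0587), and that of Chac1 without EB culture 1 (0.49, adjusted p = 0.1), EB culture 2 (0.46, adjusted p = 0.144), ESC culture 1 (0.44, adjusted p = 0.126) or ESC culture 3 (0.63, adjusted p = 0.0501).

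Relative to all genes the difference was called for Ddit3 alone (-0.91 ± 0.18 SE, adjusted p = 0.0153), with a mean ratio of -1.41 in EB and -0.50 in ESC. Of all genes 3.61% were higher and 4.65% lower in that comparison. The Ddit3 call was lost without ESC culture 1 or 2, and after median centring.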

How the results depend on the processing

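Over all counts of genes and members called, 239 values under an alternative stayed within 1.5 times the reported count and 81 moved further. Of single values, 2039 stayed on their side of the threshold or within their spread, 321 lost the call, 42 gained it, 214 moved and 13 turned. The causes were not tested. Fits of every probe set test more features, and fits without a culture have fewer samples.

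With hybridisation controls in place of spike-ins, 2138 genes and 3 members were called in total RNA, 0 and 0 in the pool ratio between states (2680 genes at an unadjusted p under 0.05), and 6698 and 7 within ESC, where 6677 genes were higher and 21 lower, against 929 and 2441 as reported. Values that turned under it were Trib3 in total RNA (-0.11), Chac1 in the ratio between states (-0.043) and, within ESC, Atf4 (0.27), Ddit3 (0.26), Ppp1r15a (0.96), Chac1 (0.74), Psat1 (0.71) and Sesn2 (0.79). With pools 3 and 4 set against pool 1 alone, Atf4 (1.13) and Ddit3 (0.51) turned within EB, Ddit3 (0.21) and Ppp1r15a (0.83) within ESC, and Ppp1r15a (0.51) within EB relative to all genes, and 554 genes were called in the relative ratio between states. Pool 4 minus pool 1 gave 5530 genes between states, and 1059 genes and 2 members within ESC.

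Every probe set on its own gave 17871 calls in total RNA, 13964 in the ratio between states, 14165 within EB, 8437 within EB relative to all genes, 5835 in pool 4, and 3 members in pool 2. Median centring gave 4203 genes in total RNA relative to all genes, 4416 genes and 2 members in the relative ratio, 8615 within EB (4382 higher and 4233 lower, against 3283 and 2091), 487 genes and 3 members in pool 1 (156 and 331, against 739 and 944), 548 genes and 3 members in pool 2 (166 and 382, against 371 and 529), 4476 in pool 3 and 7862 in pool 4. Scaling before the offset gave 698 genes higher and 494 lower in the relative ratio, against 478 and 616. A variance trend gave 2856 genes in total RNA relative to all genes and 1537 in pool 2. An offset of 16 gave 477 genes in the relative ratio, and 563 genes and 1 member in pool 2. Without the filter 2176 genes were called within ESC and 1 member in pool 2.

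With the replicate number as a block, 603 genes were called in total RNA relative to all genes (865 higher and 771 lower without it), where Atf5 was lost (adjusted p = 0.0855), and 807 genes and 3 members in pool 1 (739 higher and 944 lower genes, and 6 members, without it). It moved no other count of genes or members between states by over 1.5 times. No fit had every same-number correlation of deviations above 0.1, although pool arrays of a number share a floor in both states. In pool 3, the relative pool ratio and deposited total RNA, each of them was above every correlation between different numbers.

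Without 1 culture, relative to all genes, total RNA had 518 to 958 genes and 2 to 3 members called, the ratio between states 17 to 798 and 0 to 2, the ratio within ESC 2802 to 4901 and 2 to 6, pool 1 662 to 1142 and 2 to 5, pool 2 86 to 1241 and 0 to 4, and pool 3 1528 to 2349 and 3 to 5. On the deposited scale the ratio within ESC had 1787 to 3937 genes and 3 to 5 members. The floor limits the second Ddit3 probe set and the third of Atf4.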
